A study of Mus musculus with 6 samples.

Results

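The genes described here are 40 that copy DNA or prepare cells to copy it in S phase: the proteins that mark and license replication origins, the replicative helicase and its activators, the DNA polymerases, the sliding clamp and its loaders, and the enzymes that supply deoxynucleotides. They are a list of symbols drawn up by function, with no threshold on a measured value but with earlier results of these data known, and all 40 were found in the deposited table of 56691 genes. Expression was measured by RNA sequencing of mouse bone marrow-derived macrophages, cells grown out of bone marrow with the growth factor M-CSF. All 6 libraries came from macrophages sorted after growth together with mEC25, which the labels call a cancer cell line. In 3 libraries the macrophages had touched the mEC25 cells (contact), and in the other 3 a transwell membrane had kept the cell types apart while they shared medium (transwell), so neither group lacked mEC25. The sources used here do not give mouse strain, age, genotype, the length of co-culture or the sorting gate. They also do not say that replicates came from separate animals or cultures, and the p-values therefore cover only the spread between these libraries, which may be technical.

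Before S phase, the origin recognition complex, CDC6 and CDT1 load the ring of MCM2 to MCM7 proteins onto DNA. CDC45 and the GINS complex then turn that ring into a working helicase, and polymerases, the PCNA clamp and ligase copy both strands behind it. Most of these genes are transcribed by E2F factors once cyclin-dependent kinases inactivate the RB protein, and their messenger RNA is scarce in cells that have stopped dividing. Macrophages grown with M-CSF can keep dividing in culture, as can most tumor lines.

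Library totals ran from 20911880 to 22563835 counts in contact and from 18173192 to 18895818 in transwell. The summed level of 13 macrophage markers was 16760 to 18810 FPKM in contact and 18290 to 19390 FPKM in transwell, where FPKM is a read level scaled to exonic length and to the size of the library. Most of that sum was the lysozyme gene Lyz2, at 11412.23 to 13076.43 FPKM in contact. Of the 13 markers 6 fell, among them Fcgr1 (0.267-fold) and Adgre1 (0.434-fold), and 3 rose, led by Cd14 (2.81-fold). Over all 14113 genes tested 16.1% were called lower and 21.4% higher, shares that apply to the marker counts below as well. Contact libraries also held epithelial transcripts. Of 25 epithelial markers 20 were testable and all 20 were higher, their sum ran from 973.2 to 1710 FPKM in contact and from 8.64 to 9.56 FPKM in transwell, and Krt15, Cdh3, Dsg3, Cldn4 and Grhl2 had no transwell count. All 7 markers of granulocyte progenitors, a dividing bone marrow cell, were higher too, with sums of 65.48 to 112 FPKM in contact and 14.38 to 32.3 FPKM in transwell. Fibroblast markers rose in 6 of 8 tested cases, with sums of 18.2 to 38.02 against 8.44 to 15.58 FPKM. The share that these cells had in the changes below was not tested, and in bulk RNA more cells of one type and more RNA per cell cannot be told apart.

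Of the 40 replication and S phase genes 24 were higher in contact libraries, unevenly across the machinery. Rrm2, Orc1, Tk1, Pole, Tyms and Ccne2 rose most, 2.39-fold to 3.60-fold, whereas Pcna, Rfc2, Rpa1 and Pola2 had fitted folds between 0.948 and 1.06 and were not called. All 40 genes passed the filter on low counts. By edgeR's quasi-likelihood test with Benjamini-Hochberg adjustment over 14113 genes (threshold 0.05), these 24 rose, 1 gene fell and 15 were not called. Of all tested genes 21.4% were called higher and 16.1% lower. The 40 had a median log2 change of 0.60 and a range of -0.45 to 1.85, beside a median of 0.03 over all tested genes. Rises of at least 2-fold were called for 8 of the 40, and for 11.8% of tested genes. On the FPKM scale every contact library lay above every transwell library for 30 of the 40 genes, against 35.8% of tested genes, and the reverse held for 0 of 40, against 15.3%.

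FPKM values as deposited carry no scaling for library composition. TMM scaling, used in the test, lowered contact against transwell by 0.12 on the log2 scale, so small FPKM differences such as that of Pcna shrink in the fitted change. On TMM-scaled CPM (counts scaled to library size) 28 of the 40 genes had groups that did not overlap with contact higher, and 27.7% of tested genes did. Over all genes the split of calls moved with the method. It was 3016 higher and 2270 lower in edgeR with TMM, and 2940 and 2330 in edgeR with median-ratio scaling. Limma on unscaled log2(FPKM + 1) values gave 3811 higher and 1422 lower. Limma differed in model and measure as well as in scaling, and the part of scaling alone was not tested. Among the 40 genes limma called 27 higher and 0 lower.

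**Figure D1:**
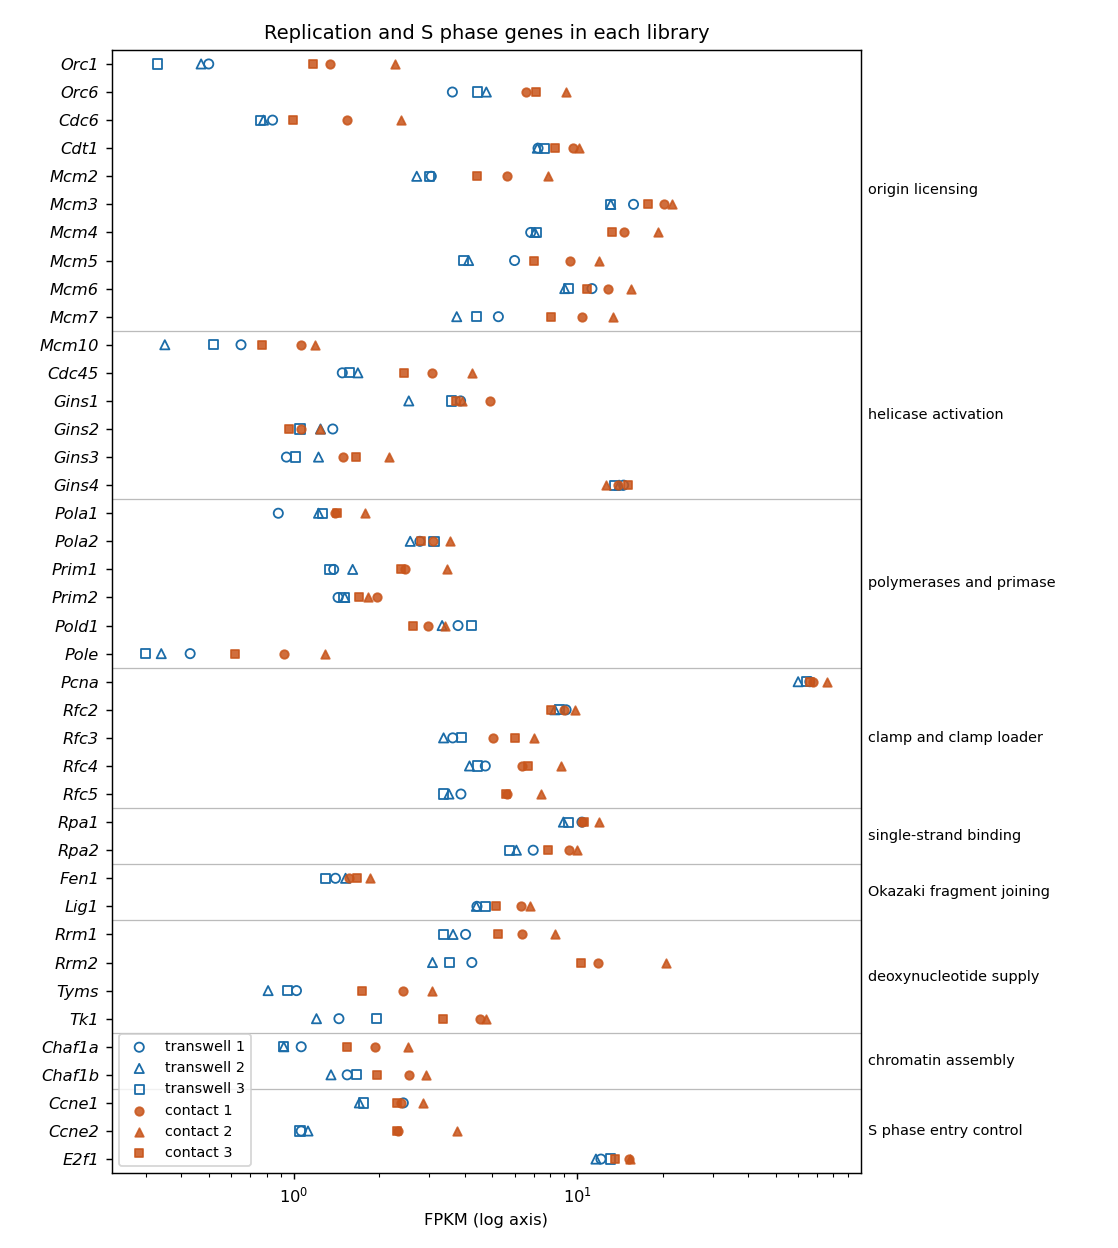
FPKM (log axis) of each of the 40 genes in the 6 libraries, with filled orange symbols for contact, open blue symbols for transwell and the shape giving the replicate. Contact symbols lie to the right of all transwell symbols for 30 genes, and contact 2 (filled triangle) is the highest contact library for 37.

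Counts in each role group below stand beside the same shares of all tested genes, 21.4% higher and 16.1% lower. Of the 10 origin licensing genes 8 rose and 0 fell, and their median log2 change was 0.90. Orc1 encodes the largest, cell cycle-regulated subunit of the origin recognition complex (ENSMUSG00000028587, protein-coding, chromosome 4, 108579423 to 108614833 on GRCm38). It stood at 1.34, 2.28 and 1.17 FPKM in contact replicates 1 to 3 and at 0.50, 0.47 and 0.33 FPKM in transwell replicates 1 to 3. Every contact value was more than double every transwell value, and contact 2 was the highest. The log2 change was 1.75 ± 0.31 (SE, edgeR adjusted p = 0.00164). That rests on few reads, 90 to 166 per contact and 21 to 33 per transwell library. Orc1 shares 10.8% of its exonic bases with Gm12743 on the opposite strand. Orc6, another subunit of the complex, stood at 6.57, 9.14 and 7.13 against 3.62, 4.77 and 4.45 FPKM, again without overlap, and rose by 0.71 ± 0.15.

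The loading factor genes differed. Cdc6 stood at 1.54, 2.38 and 0.99 FPKM in contact and 0.84, 0.78 and 0.76 FPKM in transwell. Contact 3 lay just above the transwell values and contact 2 far above them. Its change was 0.92 ± 0.28 (edgeR adjusted p = 0.0272), a call that ended without contact replicate 1 (0.96), contact replicate 2 (0.57) or transwell replicate 3 (0.89). Cdt1, which works beside CDC6, stood at 9.67, 10.11 and 8.32 against 7.26, 7.22 and 7.67 FPKM, without overlap, and was not called (log2 change 0.23, edgeR adjusted p = 0.0969). It was called without contact replicate 3 (0.30), when genes averaging under 1 FPKM in transwell were dropped (0.28), and in limma on log2(FPKM + 1) (0.30) and log2(FPKM + 0.1) (0.33).

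The genes of the MCM ring, which unwinds DNA, rose except for Mcm6. Mcm7 (ENSMUSG00000029730, protein-coding, chromosome 5, 138164583 to 138172422 on GRCm38) stood at 10.34, 13.32 and 8.07 FPKM in contact and 5.26, 3.75 and 4.39 FPKM in transwell. Groups did not overlap, and the change was 1.12 ± 0.18 (edgeR adjusted p = 0.00101). Mcm4 stood at 14.61, 19.24 and 13.29 against 6.84, 7.07 and 7.19 FPKM, with an SD of 0.178 FPKM over the transwell libraries, and rose by 1.04 ± 0.13 (edgeR adjusted p = 1.83e-04). Mcm2 (5.63, 7.85 and 4.42 against 3.05, 2.71 and 3.0 FPKM) rose by 0.91 ± 0.18 and Mcm5 (9.43, 11.96 and 7.03 against 6.0, 4.13 and 3.95 FPKM) by 0.89 ± 0.21. The highest ring subunit in every library was Mcm3, at 20.17, 21.60 and 17.67 against 15.77, 13.11 and 13.08 FPKM. It rose by 0.39 ± 0.11 (edgeR adjusted p = 0.0183), a call that ended without contact replicate 1 (0.37) or 2 (0.33) or transwell replicate 2 (0.31) or 3 (0.33).

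Mcm6 stood at 12.83, 15.47 and 10.85 FPKM in contact and 11.25, 9.02 and 9.30 FPKM in transwell. Transwell 1 lay above contact 3, so the groups overlapped, and the gene was not called (0.29 ± 0.14, edgeR adjusted p = 0.132). It was called without contact replicate 3 (0.40) or transwell replicate 1 (0.40). The summed level of the 6 ring genes was 73.01, 89.44 and 61.33 FPKM in contact and 48.17, 39.79 and 40.91 FPKM in transwell. Within each library the highest subunit, Mcm3, exceeded the lowest, Mcm2, by 2.75 to 4.0 times in contact and by 4.36 to 5.17 times in transwell. These levels per kilobase depend on the exonic lengths that the authors assigned.

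Upstream sequence is shown for the 2 genes with the largest rises, Rrm2 and Orc1, and for the MCM ring genes with the most matches, Mcm6 (not called) and Mcm5 (called), to set the data beside the E2F-type letters for which replication promoters are known. Each line gives the 250 bases before the RefSeq transcription start on GRCm38.p6, 5′ to 3′ on the gene's strand, with matches to TTTCCCGC, TTTCGCGC, TTTGCCGC or TTTGGCGC on either strand in capitals.
Orc1 (chr4:108579204-108579453, plus strand): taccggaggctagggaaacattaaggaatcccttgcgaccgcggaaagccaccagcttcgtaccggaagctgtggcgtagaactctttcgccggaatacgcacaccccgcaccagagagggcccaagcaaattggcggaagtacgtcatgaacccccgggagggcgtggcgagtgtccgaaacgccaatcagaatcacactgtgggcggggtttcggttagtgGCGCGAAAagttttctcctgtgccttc
Rrm2 (chr12:24708004-24708253, plus strand): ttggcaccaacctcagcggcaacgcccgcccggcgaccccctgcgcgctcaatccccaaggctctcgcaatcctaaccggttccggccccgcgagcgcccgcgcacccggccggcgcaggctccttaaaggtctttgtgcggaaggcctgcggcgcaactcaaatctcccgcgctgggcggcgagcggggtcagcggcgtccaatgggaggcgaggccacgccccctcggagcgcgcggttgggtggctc
Mcm5 (chr8:75109259-75109508, plus strand): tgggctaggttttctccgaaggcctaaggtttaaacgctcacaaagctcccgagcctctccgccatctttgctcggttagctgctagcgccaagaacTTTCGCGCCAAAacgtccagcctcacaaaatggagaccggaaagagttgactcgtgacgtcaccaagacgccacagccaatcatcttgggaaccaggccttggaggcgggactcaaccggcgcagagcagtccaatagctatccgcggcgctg
Mcm6 (chr1:128359706-128359955, minus strand): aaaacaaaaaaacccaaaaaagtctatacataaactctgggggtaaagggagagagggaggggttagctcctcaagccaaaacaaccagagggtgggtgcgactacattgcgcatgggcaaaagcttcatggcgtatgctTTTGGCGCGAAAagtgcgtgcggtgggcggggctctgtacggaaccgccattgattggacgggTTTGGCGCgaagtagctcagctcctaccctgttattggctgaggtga
Orc1 held 1 match, 27 bases before the RefSeq start, Mcm5 held 2 that overlap, and Mcm6 held 3, of which 2 overlap. The Orc1 gene as positioned above begins upstream of its match, at 108579423. Rrm2 held none in this window. Among the other ring genes Mcm2 and Mcm3 held 0, and Mcm7 held 1 in its more upstream window and 0 in the other. No RefSeq promoter was available for Mcm4. RefSeq gave 36 promoters for 32 of the 40 genes, and 8 of these 36 (22.2%) held a match, beside 3.21% of 13081 promoters of tested genes and 1.86% of all 32851. The match was present in 6 of 22 promoters of genes that rose and in 2 of 14 of the others. Some genes had more than 1 promoter, and counted by gene it was present in 6 of 21 and in 2 of 11. The letters CCAAT, the box bound by the factor NF-Y, were on either strand in 20 of 36 promoters (55.6%) and in 35.2% of those of tested genes. Matches are a description of letters, not of binding.

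Of the 6 helicase activation genes 3 rose, and the median was 0.42. Cdc45, which joins the ring to form the active helicase, stood at 3.06, 4.24 and 2.44 FPKM in contact and 1.48, 1.68 and 1.57 FPKM in transwell, without overlap, and rose by 0.92 ± 0.20 (edgeR adjusted p = 0.00491). Mcm10, an activation factor, stood at 1.06, 1.19 and 0.77 against 0.65, 0.35 and 0.52 FPKM. Its rise of 0.88 ± 0.25 was not called without contact replicate 1 (0.83) or 2 (0.75) or transwell replicate 3 (0.89). The 4 GINS genes did not move together. Gins3 rose by 0.63 ± 0.22 (1.49, 2.17 and 1.66 against 0.94, 1.22 and 1.01 FPKM), close to the threshold (edgeR adjusted p = 0.0461). That call ended without contact replicate 2 (0.47) or 3 (0.67), without transwell replicate 1 (0.56) or 3 (0.60), in DESeq2 (0.62), with the replicate number as a block (0.62) and without a filter on low counts (0.60). Gins1 (4.19 ± 0.632 against 3.33 ± 0.701 FPKM, SD, n = 3), Gins2 (1.06, 1.23 and 0.96 against 1.37, 1.24 and 1.05 FPKM) and Gins4 (13.9 ± 1.22 against 14.1 ± 0.49 FPKM) overlapped between groups and were not called. Gins2 shares 67.3% of its exonic bases with Gse1 on the opposite strand, and the sources used here do not say whether reads were counted by strand, so its value is uncertain.

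Among the 6 polymerase and primase genes 2 were called higher and 1 lower (median 0.26), beside 21.4% higher and 16.1% lower over all tested genes. Pole, the catalytic subunit of leading strand polymerase epsilon, stood at 0.92, 1.29 and 0.62 FPKM in contact and 0.43, 0.34 and 0.30 FPKM in transwell. The groups did not overlap at these low levels, and the change was 1.28 ± 0.26 (edgeR adjusted p = 0.00367). Pold1, the catalytic subunit of lagging strand polymerase delta, stood at 2.96, 3.40 and 2.63 FPKM in contact and 3.79, 3.33 and 4.22 FPKM in transwell. Contact 2 lay above transwell 2, so its groups overlapped, and it fell by 0.45 on the log2 scale (SE 0.13, edgeR adjusted p = 0.0198). The fall was not called without contact replicate 1 (-0.45) or 3 (-0.37), without transwell replicate 3 (-0.37), or in limma on FPKM (-0.26 with a pseudocount of 1). Prim1, the catalytic primase subunit that starts each strand, rose by 0.83 ± 0.17 (2.47, 3.46 and 2.39 against 1.38, 1.61 and 1.34 FPKM). Its partner Prim2 (1.83 ± 0.135 against 1.48 ± 0.0436 FPKM) and the polymerase alpha genes Pola1 (1.53 ± 0.214 against 1.12 ± 0.209 FPKM) and Pola2 (3.15 ± 0.378 against 2.82 ± 0.278 FPKM) were not called, with log2 changes of 0.19, 0.33 and 0.04.

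**Figure D2:**
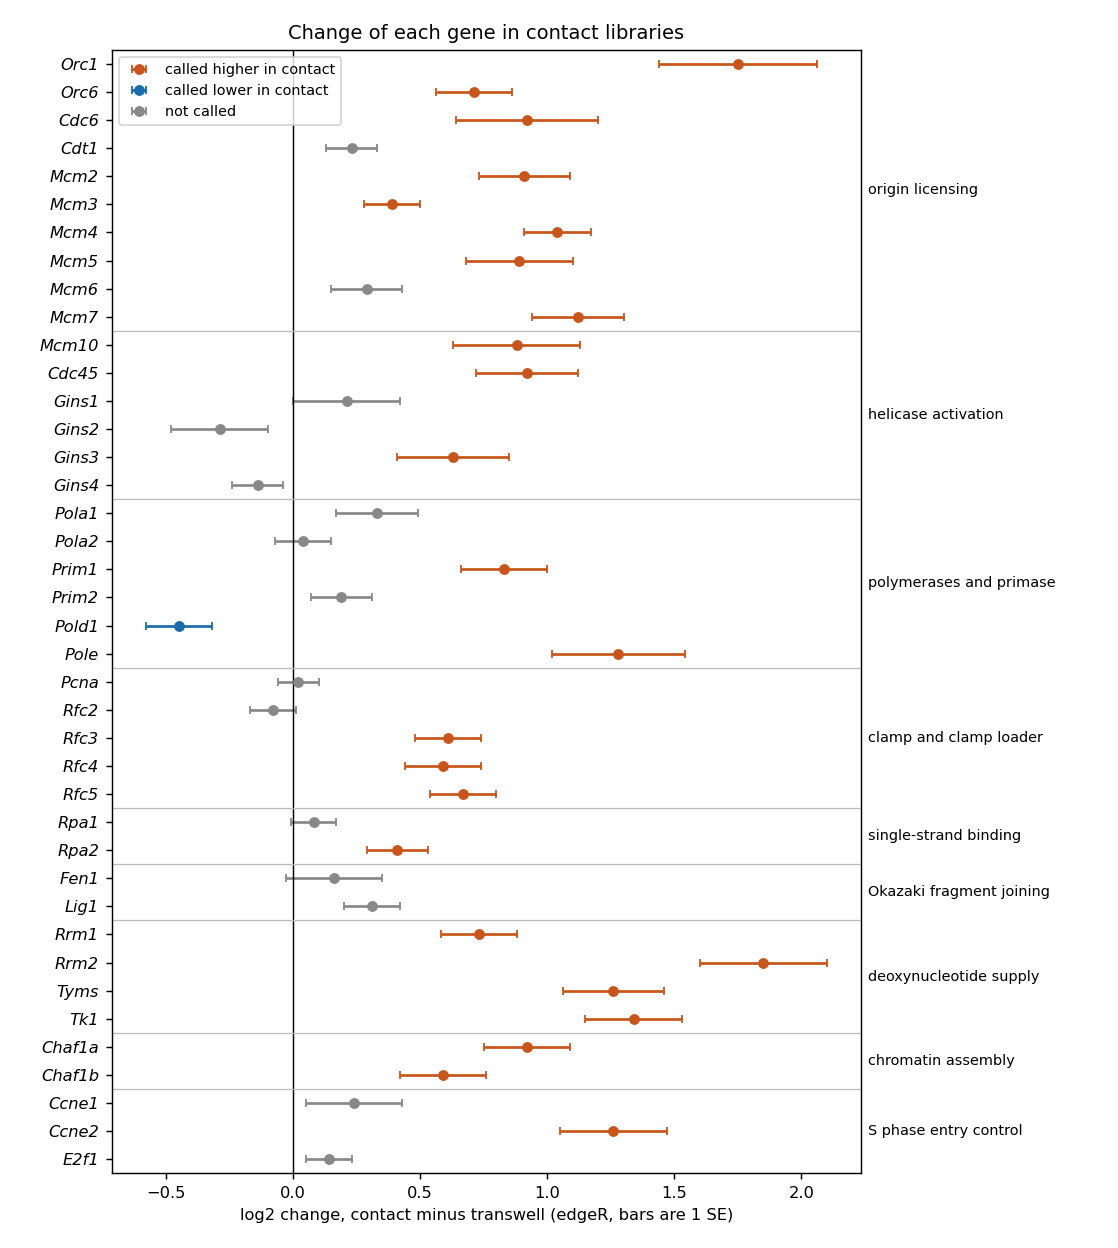
Log2 change of each of the 40 genes, contact minus transwell, from edgeR, with bars of 1 standard error and colors for the call. The 24 orange genes lie right of 0, Pold1 is the one blue gene, and the 15 grey genes lie between -0.29 and 0.33.

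The clamp gene Pcna was the most abundant of the 40, at 67.68, 75.83 and 65.91 FPKM in contact and 66.06, 60.07 and 64.13 FPKM in transwell. Contact 3 lay below transwell 1, and the log2 change was 0.02 ± 0.08 (edgeR adjusted p = 0.859). PCNA also acts in DNA repair, outside S phase. Of the 4 clamp loader genes among the 40, 3 rose: Rfc5 by 0.67 ± 0.13, Rfc3 by 0.61 ± 0.13 and Rfc4 by 0.59 ± 0.15. Rfc5 stood at 5.63, 7.43 and 5.61 against 3.88, 3.52 and 3.37 FPKM. Rfc3 stood at 5.04, 7.01 and 6.0 against 3.63, 3.37 and 3.91 FPKM, and Rfc4 at 6.39, 8.77 and 6.67 against 4.73, 4.16 and 4.43 FPKM. In none of these 3 did the groups overlap, and contact 2 was the highest library in each. The Rfc4 call ended without transwell replicate 3 (0.59, edgeR adjusted p = 0.0503). Rfc2 stood at 8.96, 9.80 and 8.08 against 9.12, 8.32 and 8.66 FPKM, fully interleaved, with a change of -0.08 ± 0.09. Part of the exonic bases is shared with a gene on the opposite strand for Rfc2 (15.1%, Lat2), Rfc4 (12.7%, Eif4a2) and Rfc5 (10.7%, Wsb2). Rfc1, the large loader subunit and not one of the 40, was not called either (0.14 ± 0.13).

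Of the 4 genes that coat single strands or join fragments, Rpa2 alone was called. Rpa2 stood at 9.34, 9.97 and 7.89 against 6.98, 6.09 and 5.74 FPKM and rose by 0.41 ± 0.12 (edgeR adjusted p = 0.0196), a call that ended without contact replicate 1 (0.39) or 2 (0.35) or transwell replicate 2 (0.36) or 3 (0.35). Rpa1, its partner in the RPA complex, stood at 10.34, 11.91 and 10.55 against 10.37, 8.92 and 9.27 FPKM, with transwell 1 above contact 1 (0.08 ± 0.09, not called). Neither gene of fragment joining was called: the ligase gene Lig1 stood at 6.31, 6.81 and 5.14 against 4.42, 4.40 and 4.74 FPKM (0.31 ± 0.11, edgeR adjusted p = 0.0563) and the flap nuclease gene Fen1 at 1.56, 1.86 and 1.67 against 1.40, 1.52 and 1.29 FPKM (0.16 ± 0.19). Lig1 was called under the same 4 alternatives, at 0.42 without contact replicate 3, 0.37 without the genes low in transwell, and 0.35 and 0.41 in limma. Fen1 shares 78.8% of its exonic bases with Gm10143 on the opposite strand, so its value is uncertain.

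All 4 genes of deoxynucleotide supply rose, with the highest median of the role groups, 1.30. Rrm2, the S phase subunit of ribonucleotide reductase (ENSMUSG00000020649, protein-coding, chromosome 12, 24708241 to 24714146 on GRCm38), stood at 11.82, 20.47 and 10.31 FPKM in contact and 4.24, 3.08 and 3.54 FPKM in transwell. Contact 2 was nearly double contact 3, and each contact value exceeded each transwell value by more than double. Rrm2 had the largest change of the 40, 1.85 ± 0.25, a 3.60-fold difference (edgeR adjusted p = 2.78e-04). Its partner Rrm1, the large catalytic subunit, rose by 0.73 ± 0.15 (6.37, 8.30 and 5.24 against 4.03, 3.64 and 3.36 FPKM). Tk1, the thymidine salvage kinase of S phase cells, stood at 4.52, 4.77 and 3.36 against 1.44, 1.20 and 1.96 FPKM and rose by 1.34 ± 0.19 (edgeR adjusted p = 4.5e-04). Tyms, which makes thymidylate, rose by 1.26 ± 0.20 (2.43, 3.07 and 1.73 against 1.02, 0.81 and 0.95 FPKM).

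Both subunits of chromatin assembly factor 1 that are on the list, which places histones on new DNA, rose: Chaf1a by 0.92 ± 0.17 (1.93, 2.52 and 1.54 against 1.06, 0.92 and 0.92 FPKM) and Chaf1b by 0.59 ± 0.17 (2.54, 2.93 and 1.97 against 1.54, 1.35 and 1.66 FPKM). The Chaf1b call ended without contact replicate 1 (0.57) or 2 (0.47) or transwell replicate 2 (0.48). Chaf1a shares 52.5% of its exonic bases with Ubxn6 on the opposite strand and is uncertain for that reason. Of the genes that control entry, the E-type cyclin gene Ccne2 stood at 2.32, 3.76 and 2.31 FPKM in contact and 1.06, 1.12 and 1.05 FPKM in transwell, and rose by 1.26 ± 0.21 (edgeR adjusted p = 0.00124). Ccne2 shares 17.4% of its exonic bases with Ints8 on the opposite strand. Its relative Ccne1 stood at 2.38, 2.86 and 2.30 against 2.43, 1.70 and 1.76 FPKM, with transwell 1 above contact 1 and 3. Ccne1 was not called (0.24 ± 0.19). E2f1, the factor that drives many of these genes, stood at 15.16, 15.28 and 13.62 against 12.10, 11.62 and 13.08 FPKM and was not called (0.14 ± 0.09, edgeR adjusted p = 0.242). Limma on unscaled FPKM called it (0.24).

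Ratios between partner genes within a library do not depend on library scaling, and 5 pairs were set side by side after their values were seen. Rrm2 over Rrm1 was 1.86, 2.47 and 1.97 in contact and 1.05, 0.846 and 1.05 in transwell. Ccne2 over Ccne1 was 0.975, 1.31 and 1.0 in contact and 0.436, 0.659 and 0.597 in transwell. Mcm4 over Mcm6 was 1.14, 1.24 and 1.22 against 0.608, 0.784 and 0.773. All 5 ratios were higher in every contact than in every transwell library, Pole over Pold1 by the most, at 0.309 ± 0.0719 against 0.0955 ± 0.0219 (SD, n = 3), and Orc1 over Orc6 at 0.206 ± 0.0427 against 0.104 ± 0.0323. With 3 libraries a group the two-sided exact permutation test cannot go below p = 0.1, which each pair reached, and since the pairs were picked on these values that p is no support.

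**Figure D3:**
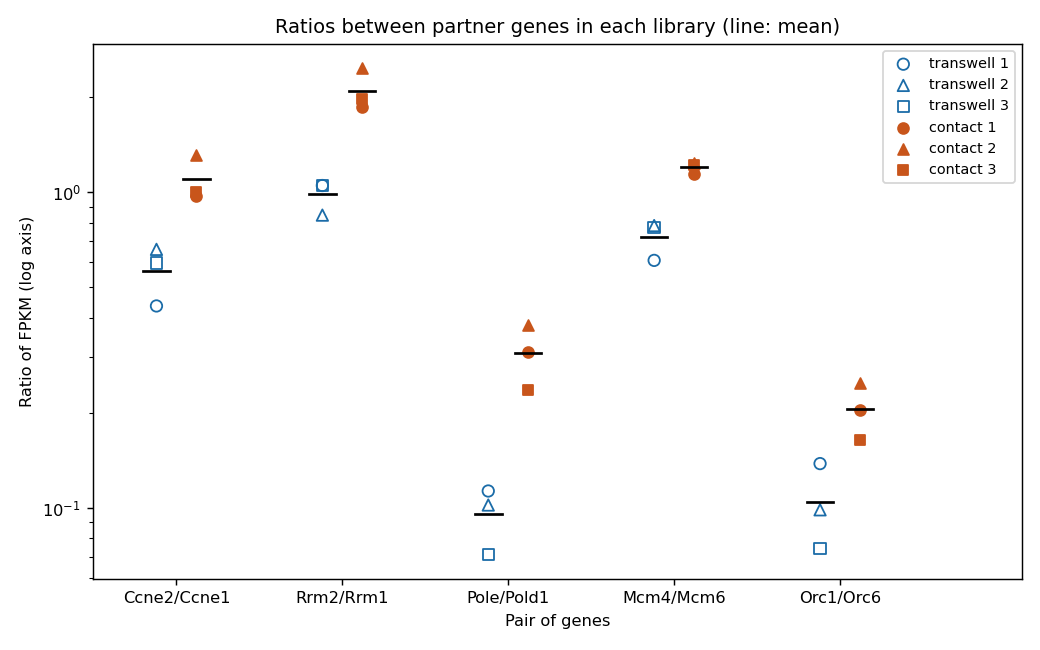
Ratio of FPKM (log axis) between partner genes in each library, for 5 pairs picked after their values were seen, with contact filled, transwell open and a line at each group's mean. The contact symbols lie above the transwell symbols in every pair, for example 1.86 to 2.47 against 0.846 to 1.05 for Rrm2 over Rrm1.

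Other genes of the pathway, 79 in 4 lists, had a lower median log2 change than the 40, at 0.18. Of these 79 genes 27 rose, 5 fell and 47 were not called, beside 21.4% higher and 16.1% lower over all tested genes. Rises of at least 2-fold were called for 12 of the 79, and for 11.8% of all tested genes. The largest rise of the 79, 4.74-fold for Ccna2, exceeded the largest of the 40, 3.60-fold for Rrm2. Of 40 further genes of the replication machinery 12 rose and 1 fell (median 0.22). Dbf4, the activator of the CDC7 kinase that fires origins, rose by 2.22 ± 0.15 (8.65 ± 1.69 against 1.72 ± 0.20 FPKM), and Top2a, the topoisomerase of late S phase and mitosis, by 1.85 ± 0.17. Pole4, a small polymerase epsilon subunit, fell by 0.34 on the log2 scale (20.1 ± 0.532 against 23.4 ± 1.80 FPKM).

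Among 12 nucleotide genes outside the 40, 4 rose, 4 fell and 4 were not called, beside 21.4% higher and 16.1% lower over all tested genes. Dut, which removes dUTP, rose by 2.14 ± 0.18 (11.9 ± 2.38 against 2.48 ± 0.523 FPKM) and the deaminase gene Dctd by 1.71 ± 0.26. The fallers were led by Dck, the deoxycytidine salvage kinase (18.8 ± 1.73 against 31.6 ± 4.85 FPKM, log2 change -0.86 ± 0.11), and by Samhd1, which breaks down deoxynucleotides in non-dividing myeloid cells (42.8 ± 0.626 against 64.7 ± 4.63 FPKM, -0.71 ± 0.07).

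In the E2F and RB list with cyclin A and CDK2, 5 of 16 genes rose and 0 fell, beside the same 21.4% and 16.1% of tested genes. The cyclin A gene Ccna2 rose by 2.25 ± 0.17 (10.04 ± 2.55 against 1.95 ± 0.0889 FPKM) and E2f7, a repressive E2F that is itself an E2F target, by 2.19 ± 0.23 at low levels (0.61 ± 0.0721 against 0.123 ± 0.0153 FPKM). The activator genes E2f2 and E2f3 were not called (0.17 and -0.03). Of 11 genes of replication-coupled chromatin 6 rose and 0 fell, among them the helicase gene Hells (1.72 ± 0.18) and Uhrf1, which guides DNA methylation onto new strands (1.45 ± 0.20).

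Most of the 40 genes ordered the 3 contact libraries as did the keratin gene Krt5, an epithelial marker that stood at 335.93, 511.24 and 281.07 FPKM in contact and at 0.14, 0.08 and 0.07 FPKM in transwell. Contact 2 was highest, then contact 1, then contact 3. Of the 40 genes 30 (75%) had that same order of levels, beside 25% of all tested genes. Of the 24 that rose 20 had it, beside 43.6% of all 3016 genes called higher. Contact 2 was the highest contact library for 37 of the 40, beside 40.9% of tested genes, and contact 3 the lowest for 32, beside 41.4%. With TMM-scaled CPM 29 of the 40 had the order of Krt5, beside 23% of tested genes. The 3 libraries allow no test of a correlation, the libraries share depth and handling with everything measured in them, and no part of mEC25 cells in these levels was tested.

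The size of the step was set beside that of Krt5 after subtracting the transwell mean from each contact library. Krt5 was 1.82 times as high in contact 2 as in contact 3. The excess of the 24 genes that rose was 1.43 to 8.07 times as high in contact 2 as in contact 3, with a median of 2.48, and 21 of them had a ratio at or above that of Krt5. Over all 3016 genes called higher the median of this ratio was 1.43, with quartiles of 1.02 and 1.84. For Mcm4 the excess was 2.26, 2.39 and 2.23 FPKM per 100 FPKM of Krt5 in contact 1, 2 and 3. Rrm2 gave 2.44, 3.30 and 2.38, and Cdc6 0.222, 0.310 and 0.0700. Summed over the 40 genes the excess was 79.5, 136 and 53.4 FPKM, which is 23.7, 26.5 and 19.0 FPKM per 100 FPKM of Krt5. Pcna, which was not called, gave 4.26, 12.4 and 2.49 FPKM of that sum. All these excesses were taken on FPKM without TMM scaling, which lowered contact against transwell by 0.12 on the log2 scale. With that scaling the excesses and their ratios would differ, and they were not recomputed.

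**Figure D4:**
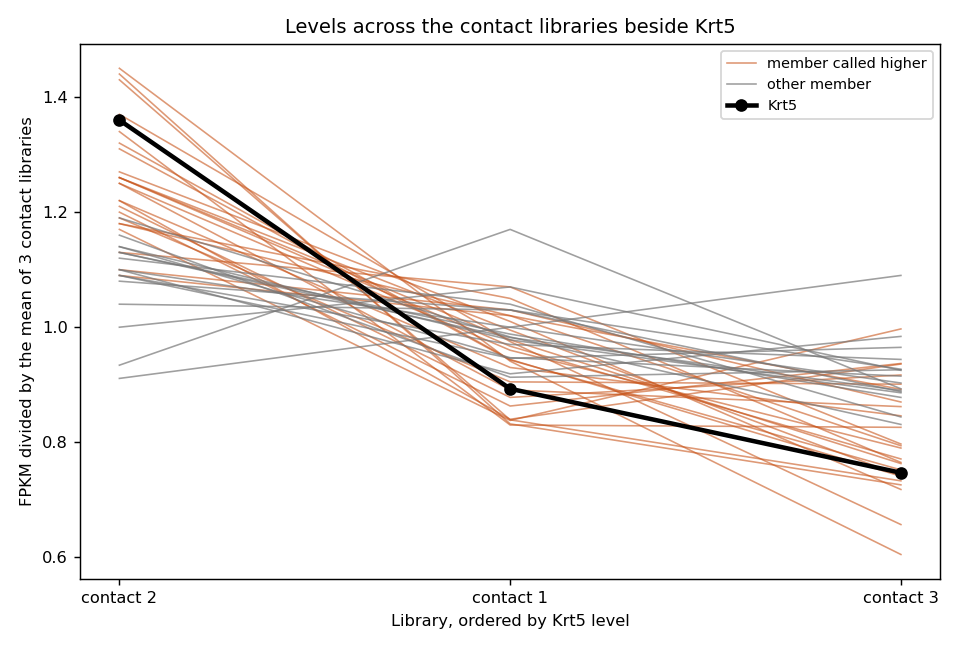
FPKM divided by the mean of the 3 contact libraries, with the libraries ordered by their Krt5 level, for Krt5 (black), the 24 genes called higher (orange) and the other 16 genes (grey). Krt5 goes from 1.36 in contact 2 to 0.747 in contact 3, and 30 of the 40 gene lines step down in the same order.

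Granulocyte progenitor markers had the contact order of Krt5 in 3 of 7 cases, and 4 of 7 were highest in contact 2. Elane, a neutrophil protease gene of promyelocytes, stood at 31.17, 35.48 and 21.24 FPKM in contact and 6.08, 2.68 and 3.01 FPKM in transwell, and is one of the 3. Prtn3 (26.94, 26.45 and 13.16 FPKM in contact), Kit (0.93, 0.86 and 0.69 FPKM) and Ms4a3 (4.54, 4.31 and 1.98 FPKM) were highest in contact 1. Cd34, at 0.88, 1.12 and 1.02 FPKM, was lowest in contact 1. The contact order of Krt5 was also held by 19 of 25 epithelial, 0 of 13 macrophage and 1 of 10 fibroblast markers. Among the other marker lists it was held by 1 of 8 neutrophil, 1 of 8 erythroid, 1 of 7 T cell and 3 of 6 B cell markers. These counts include markers with too few counts to test, and 25% of all tested genes had that order. The summed progenitor markers stood at 105.1, 112 and 65.48 against 32.3, 14.38 and 15.1 FPKM, so the sum had the contact order of Krt5. Their excess over the transwell mean was 1.15 (Cd34) to 4.09 (Prtn3) times as high in contact 2 as in contact 3. For Krt5 that ratio was 1.82. Transwell 1 was the highest transwell library for 23 of the 40 genes, among them Mcm5, Mcm6 and Mcm7, beside 35.8% of tested genes. It also had the highest transwell sum of progenitor, fibroblast, neutrophil (1354 against 722.8 and 723.7 FPKM), erythroid, T cell, B cell and macrophage markers. Its epithelial marker sum, 8.64 FPKM, was the lowest of the transwell libraries, although its Krt5 level, 0.14 FPKM from 6 counts, was the highest. Summed erythroid markers overlapped between the groups, at 2.22 to 3.89 FPKM in contact and 1.36 to 4.23 FPKM in transwell. Neutrophil markers gave 1 rise (Retnlg) and 1 fall (Mmp8, 76.58 against 227.9 FPKM) among 7 tested, and Ly6g had too few counts to test. T cell markers gave 1 rise among 2 tested, Cd4 (4.72 against 1.76 FPKM). Cd3d, Cd3e, Cd3g, Cd8a and Trac had too few counts to test. B cell markers gave 2 falls among 2 tested, and over all tested genes 21.4% were called higher and 16.1% lower. Whether any of these cell types had a part in the levels of the 40 genes was not tested.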

How the data were processed

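RNA from sorted macrophages was taken with Trizol and made into mRNA-seq libraries, per the series' design text and the labels' protocols. The authors deposited raw counts per Ensembl gene and FPKM for each library, per the file headers. Of FPKM values with a count above 100, 99.93% lay within 1% of count over exonic length and library total. GRCm38 and mm10 are named in the submitters' processing notes; no source used here names the aligner, the counter or the strand setting. Gene positions were looked up in GENCODE M21, because the table's coordinates differ from it.

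Genes were filtered with filterByExpr (minimum count 10; 14113 kept), scaled with TMM and compared, contact minus transwell, by the two-sided quasi-likelihood test of edgeR 4.0.16 in R 4.3.3 (with limma 3.58.1). Each standard error is the size of the log2 change divided by the root of its F statistic. The common biological coefficient of variation was 0.1225. Replicate pairs differed beyond sampling noise (chi-square of 5.895 to 22.75 per degree of freedom). The pipeline was tested on simulated data. Members and gene lists were chosen with earlier results of these data known, and values in each library were given for called members and the first and last of each role group, with the 2 largest changes per direction in other lists. Alternatives were DESeq2 1.42.0, median-ratio scaling, other filters, limma on log2(FPKM + 1) and log2(FPKM + 0.1), a replicate block and leaving out each library. Figures used matplotlib 3.10.9.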

Additional observations from a re-analysis of the deposited data

How the results depend on the processing

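Of the 25 genes called, 13 were called under all 13 alternatives, 4 more under all 12 in which they were tested, and the other 8 lost the call under at least 1. The count of genes called higher was 24 in the report, 18 to 26 when each library was left out, 20 of 34 tested when a mean transwell FPKM of at least 1 was required, and 27 in limma at either pseudocount. The count called lower, 1 in the report, was 0 in limma on log2(FPKM + 1), 0 on log2(FPKM + 0.1), and 0 to 1 when each library was left out. The median log2 change ran from 0.46 to 0.70. Signs turned only for 3 uncalled genes near 0: Pcna (-0.01 without a filter, -0.05 to 0.06 as libraries were left out), Rfc2 (0.03 and 0.04 in limma) and Pola2 (-0.06 to 0.11 as libraries were left out). Beyond the direct effect of fewer libraries or genes, the cause was not tested.

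The sources used here do not say whether same-numbered libraries were paired, and the main fit did not pair them. Their deviations from the group mean correlated at -0.0828, -0.445 and 0.0557, beside -0.303 to 0.336 for libraries with different numbers. With 3 libraries a group these correlations cannot settle whether a pairing existed. With the replicate block 23 genes were called higher and 1 lower, and Gins3 lost its call. Genes under 1 FPKM in transwell, such as Orc1 with 84 transwell counts in all, are limited by depth.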
